A study of Mus musculus with 30 samples.

Results

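Small intestine and large intestine of the mouse were compared on 4 two-colour microarrays out of 30 that profiled 15 adult organs and tissues with 2 arrays each. The intestines came from male C57BL/6 mice whose age is labelled as 28 weeks, where the study's methods give another age, with no treatment, and the study's design text says that the replicates of all tissues but bone and fat were taken from different animals. Each array set Cy3-labelled RNA of a tissue against a Cy5-labelled common reference, which was a mixture of a universal mouse reference RNA pooled from cultured cell lines with RNA of 129 embryonic stem cells. Whole pieces of washed intestine were homogenised, so epithelium, muscle, nerves and immune cells were measured together, and the labels do not say which segment of either intestine was taken. The array was a 60-base oligonucleotide design, and 25030 of its probes, those of the study's value table, were used.

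A probe was taken as a member of the comparison when both arrays of one intestine lay apart from both arrays of the other, in either direction. Of 25030 probes, 21026 passed a filter on low signal and were tested, which asked that 1 or more of the 15 tissues had its 2 arrays both clearly over background. Among the 21013 tested probes with a value on all 4 arrays, 9214 (43.8%) were members, 4402 (20.9%) with small intestine higher and 4812 (22.9%) with large intestine higher. Without the filter the members numbered 5051 and 5495. Gene symbols came from the study's supplementary probe lists and were matched to current RefSeq names. They covered 5049 of the tested probes (24.0%) and 2120 of the members, 1111 (22.0% of the tested probes with a symbol) towards small intestine and 1009 (20.0%) towards large intestine. The remaining 7094 members have no symbol in these lists and are counted only.

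The small intestine is lined by absorptive enterocytes whose brush border carries the last enzymes of sugar and peptide digestion, and whose interior re-esterifies absorbed fat and packs it into lipoproteins. The large intestine has no villi. Its lining absorbs salt and water, secretes mucus from abundant goblet cells and lives on short chain fatty acids made by bacteria, and its position along the body axis is written in posterior Hox genes. Both organs also hold smooth muscle layers and an enteric nervous system.

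The arrays of the 2 tissues were not equally alike. Over the table probes, Pearson's r was 0.969 between the small intestine replicates and 0.797 between the large intestine replicates. In the other 13 tissues it ranged from 0.657 (fat) to 0.99 (heart). Only fat was below large intestine, and bone (0.846) and skin (0.94) came next. The large intestine replicates were at least 1 log2 unit apart for 25.3% of tested probes, the highest share of all tissues, against 1.28% in small intestine. Large intestine replicate 1 correlated more closely with small intestine replicate 2 (r = 0.894) and replicate 1 (r = 0.883) than with its own replicate, and it was 1 of 2 arrays among 30 whose nearest array was not its own replicate. Small intestine replicate 2 and large intestine replicate 1 were also hybridised on the same slide, while the other 2 intestine arrays were on 2 other slides and large intestine replicate 2 was scanned on another day than the rest. The part of slide or scan day in this placement was not tested, nor was whether large intestine replicate 1 held tissue or RNA of small intestine, which bears on each of its values for genes high there. The share of spots well above background in Cy3 lay between 58.9% and 61.2% on the 4 arrays. Results are given for each array and, where they turn on it, without it.

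Levels are log2 ratios of Cy3 over Cy5, so that 0 is the level of the common reference. Array values are listed in the order small intestine replicate 1, small intestine replicate 2, large intestine replicate 1 and large intestine replicate 2. Differences are small minus large intestine from a limma fit over all 30 arrays with 1 coefficient per tissue, each with its standard error (SE) and with p-values adjusted by Benjamini-Hochberg over the tested probes. A probe was called when its adjusted p was below 0.05 and the difference reached 1 on the log2 scale. With 2 arrays against 2, an exact permutation test of a single gene cannot pass 0.05, so none was run.

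By this test 1330 probes (6.33%) were called with small intestine higher and 1060 (5.04%) with large intestine higher. Among probes with a symbol the counts were 350 (6.93%) and 154 (3.05%). All 4 arrays were apart for 1281 of the probes called higher in small intestine and 1055 of those called higher in large intestine. Differences of at least 3 on the log2 scale were called at 128 probes towards small intestine and at 67 towards large intestine. In a fit without large intestine replicate 1 the counts were 3311 and 2437, and without large intestine replicate 2 they were 547 and 582. Probes apart and called against each large intestine array alone numbered 464 (2.21%) towards small intestine and 383 (1.82%) towards large intestine. With slide as a random block 917 and 885 probes were called, with slide as a fixed block 670 and 738, and with scan day as a fixed block 789 and 928.

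**Figure D1:**
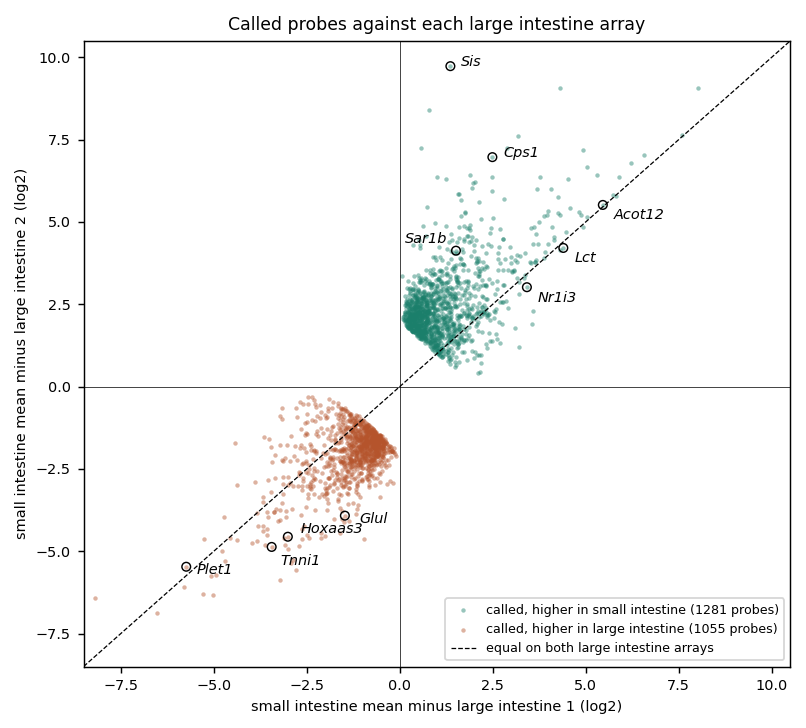
Each point is a called member, placed by the small intestine mean minus large intestine replicate 1 (x axis, log2) and minus large intestine replicate 2 (y axis, log2), green when higher in small intestine (1281 probes) and brown when higher in large intestine (1055 probes). Most green points lie above the dashed line of equal difference, Sis and Cps1 far above it, whereas Acot12, Lct, Nr1i3 and Plet1 lie close to it.

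The position of large intestine replicate 1 split the members higher in small intestine. Among the 1281 called members of that direction, replicate 1 was at least 1 log2 unit above replicate 2 for 806 (62.9%), and the opposite held for 17. Over all 21013 probes with 4 values those shares were 16.3% and 8.97%. The large intestine values compared here also chose the members, so the shares among members are partly fixed by that choice. The small intestine replicates were within 1 unit of each other for 97.1% of the same members, beside 98.7% over all tested probes. Members higher in large intestine were less divided than these, but more than probes in general. The 2 large intestine arrays were within 1 unit for 584 of 1055 (55.4%). This compares with 35.8% of the members higher in small intestine and 74.7% over all tested probes. Replicate 2 was higher by 1 or more for 422 (40.0%). On the slide that held both tissues, the single pair of arrays could also be compared. It differed by at least 1 in the direction of the call for 549 members (42.9%) towards small intestine and 521 (49.4%) towards large intestine. Both arrays also entered the calls, and the share over all probes was not counted.

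Digestive enzymes of the brush border were among the named genes with the largest differences of means towards small intestine. Sis encodes sucrase-isomaltase, which cleaves sucrose and starch fragments at the enterocyte surface. Its levels were 9.02, 9.51, 7.91 and -0.46, so that both small intestine arrays were above both of large intestine, but large intestine replicate 1 was close to them and replicate 2 was not well above background. Large intestine replicate 1 had 39% of the small intestine mean. Against replicate 2 no exact fold is given, since the probe was not well above background there. The difference was 5.54 (SE 1.42, adjusted p = 0.011), and 1.36 without large intestine replicate 2 (adjusted p = 0.00787). Lct, the gene of lactase, did not share this split. It had 4.61, 5.47, 0.64 and 0.83, a difference of 4.30 (SE 0.48, adjusted p = 5.45e-06) or 19.7-fold, and the within-slide difference was 4.82. Of the brush border list, 10 of 35 genes were tested, 2 of them were called and both were higher in small intestine, a direction called for 6.93% of all tested probes with a symbol. The median difference of the list was 0.33, beside -0.01 over all tested probes. Vil1, which encodes the microvillus protein villin, had 5.09, 5.84, 5.61 and 5.12, and Alpi, intestinal alkaline phosphatase, had 3.69, 4.39, 3.47 and 3.03 (adjusted p = 0.078). Villin was thus high on all 4 arrays with overlapping values, so that the defining epithelial marker was present in both tissues as labelled. Both calls of the list were also made without either large intestine array.

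Probe stretches of 5 genes and promoters of 3 are given so that measured and regulatory sequences can be read beside the values. The first 30 bases of the 60-base array probes of 5 genes on which the comparison turns, 3 higher in small and 2 higher in large intestine, read as follows, 5′ to 3′ as in the scanner files.
Acot12: acatagacagtatggactccagtttgcagg
Cps1: tttctttgatagatccttgcttcaggtttt
Sis: ggtccacggttctactttcctgactcccta
Plet1: ctactagcagatttccactgtgcccagacc
Hoxaas3: ttcataaacaacaacggatttatgaccctt

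The 200 bases upstream of the annotated start of Lct (chr1:128328319-128328518, minus strand), Sis (chr3:72967864-72968063, minus strand) and Mptx1 (chr1:174330318-174330517, plus strand) were taken from RefSeq on GRCm38.p6. They show an enzyme without and an enzyme with a high value on large intestine replicate 1, and the mucosal pentraxin gene that was high in both tissues. Capitals mark letters searched for on both strands, namely AGATAA for GATA factors, TTTATG and TTTACG for CDX factors, CAAAGT for HNF4 and GTTAAT, a part of the HNF1 site.
Lct: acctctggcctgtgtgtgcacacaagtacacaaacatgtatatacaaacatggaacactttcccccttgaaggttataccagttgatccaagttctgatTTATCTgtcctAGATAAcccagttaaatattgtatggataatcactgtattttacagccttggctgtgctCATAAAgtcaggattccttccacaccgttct
Sis: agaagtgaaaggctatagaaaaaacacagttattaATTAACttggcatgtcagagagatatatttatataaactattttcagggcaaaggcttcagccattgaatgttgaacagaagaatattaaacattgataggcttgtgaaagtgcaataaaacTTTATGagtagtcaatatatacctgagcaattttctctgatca
Mptx1: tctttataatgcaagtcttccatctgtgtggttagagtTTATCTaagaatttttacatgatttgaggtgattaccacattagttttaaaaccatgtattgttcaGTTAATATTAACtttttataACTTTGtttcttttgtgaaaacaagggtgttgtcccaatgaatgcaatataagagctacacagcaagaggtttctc

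In the Lct stretch a TTATCT and an AGATAA began 101 and 90 bases before the start and a CATAAA 31 bases before it. The Sis stretch held an ATTAAC at 165 and a TTTATG at 43 bases. In that of Mptx1, TTATCT began at 162 bases, GTTAAT and ATTAAC adjoined each other at 96 and 90, and ACTTTG began at 76. These letters are frequent in promoters in general. Over windows of 300 bases (250 before and 50 after the start), CAAAGT was in 46 of 328 promoters (14.0%) of called genes higher in small intestine and in 9 of 151 (5.96%) of those higher in large intestine, beside 14.4% of all 32851 promoters and 11.4% of the 4609 promoters of tested genes with a symbol. TTTATG was in 9.76%, 7.28%, 11.9% and 7.4% of the same sets, AGATAA in 7.93%, 7.28%, 11.2% and 7.22%, GTTAAT in 6.1%, 3.31%, 7.1% and 4.95%, and TTTACG in 3.05%, 1.32%, 3.03% and 4.3%. A promoter was found for 259 of 334 gene names in the first set and 120 of 153 in the second, some with more than 1 start. A match is a run of letters, and no binding was measured.

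**Figure D2:**
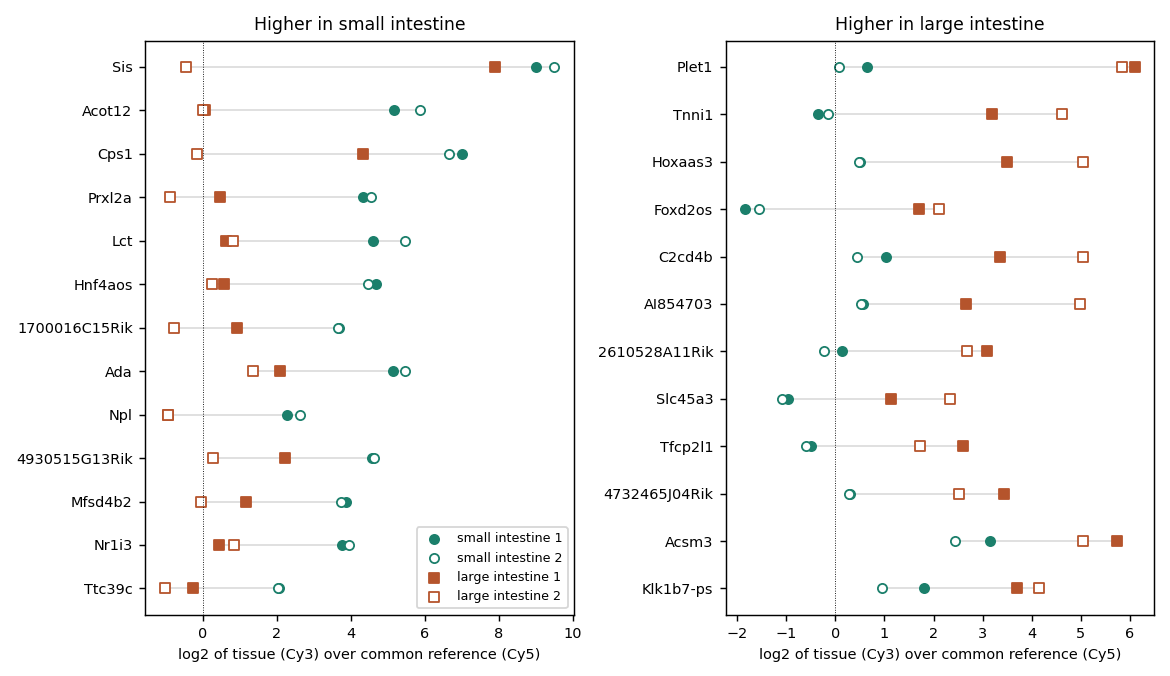
Levels on each of the 4 arrays (x axis, log2 of tissue over common reference, 0 dotted) for the 13 genes named by gap or difference towards small intestine (left) and the 12 towards large intestine (right), with circles for small and squares for large intestine, filled for replicate 1 and open for replicate 2. The small intestine replicates lie close together throughout, while the large intestine squares are far apart for Sis and Cps1 and nearly coincide for Acot12, Lct and Npl.

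Nitrogen and purine metabolism held further members of high difference. Cps1, which makes carbamoyl phosphate for citrulline synthesis in enterocytes and for the urea cycle in liver, had 7.0, 6.66, 4.34 and -0.14, a difference of 4.73 (SE 0.76, adjusted p = 0.000296). As for Sis, large intestine replicate 1 lay between, at 17.8% of the small intestine mean, and replicate 2 was not well above background, with a signal at least 97.0-fold lower in the Cy3 channel taken alone and normalised between arrays. Both sides of such a bound are Cy3 signals of the same probe, and a dye effect that differed between arrays was not measured, since no dyes were swapped. Without replicate 2 the Cps1 difference was 2.49 (adjusted p = 1.16e-07). Ada, adenosine deaminase, which degrades adenosine in the gut lining, had 5.15, 5.48, 2.08 and 1.36. The 4 arrays were apart by 3.08 at least, with a difference of 3.60 (SE 0.22, adjusted p = 1.41e-09) or 12.1-fold. Adss, an enzyme of adenine nucleotide synthesis, was also called higher in small intestine (difference 1.80), mainly on replicate 2, since its within-slide difference was 0.57. Otc, the enzyme after Cps1 in the pathway, had 1.81, 1.54, 0.89 and 0.70, apart but by less than 1 log2 unit. The opposite direction was taken by Glul, glutamine synthetase, with -1.40, -1.35, 0.10 and 2.54 (difference -2.70, SE 0.44, adjusted p = 0.000314). Of the 23 genes listed for citrulline, glutamine and purine enzymes 12 were tested, 3 were called higher in small intestine and 1 in large intestine (6.93% and 3.05% over all tested probes with a symbol), with a median difference of 0.14. Without large intestine replicate 2 the calls were 2 and 1.

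Fat handling leaned towards small intestine. Of 13 tested genes (of 37 listed) for lipid uptake and lipoprotein assembly, 6 were called higher in small intestine and 1 in large intestine, beside 6.93% and 3.05% of all tested probes with a symbol. The median difference was 0.95, the highest among the lists. Dgat1 catalyses the last step of triglyceride synthesis. It had 4.0, 4.45, 2.63 and 2.39, with the large intestine arrays close to each other and below both small intestine arrays (difference 1.72, SE 0.28, adjusted p = 0.000306). Gpat3, an acyltransferase at the start of the same pathway and listed by the study as Agpat9, had 4.56, 4.53, 2.63 and 0.57, and Sar1b, a GTPase needed for export of lipoprotein particles from the endoplasmic reticulum, had 2.25, 1.81, 0.52 and -2.10. Abca1, a cholesterol exporter, had 2.12, 1.93, -0.17 and -2.24 (difference 3.23, SE 0.41, adjusted p = 2.12e-05). For these 3 genes large intestine replicate 1 lay between the small intestine arrays and replicate 2, and each was called against either large intestine array alone. Agpat3 and Dbi, the acyl-CoA binding protein, were called with differences of 1.09 and 1.37. Soat1, a cholesterol acyltransferase, was the gene called in the other direction, with -0.63, -0.11, 0.10 and 1.49. Without large intestine replicate 2 the calls of the list were 5 and 0.

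Enzymes of fatty acyl groups divided between the tissues. Acot12, a thioesterase that hydrolyses acetyl-CoA, had the widest gap of any named member towards small intestine, with 5.17, 5.87, 0.06 and 0.00. Neither large intestine array was well above background, and in the Cy3 channel alone the small intestine signal was at least 47.7-fold higher (log2 means of 12 and 6.34). The difference on the ratio scale was 5.49 (SE 0.23, adjusted p = 7.44e-12). It was 5.52 without large intestine replicate 1 and 5.46 without replicate 2. That both arrays give a large difference follows from naming the gene for its gap. Of the 54 genes of this list 41 were tested, 9 were called higher in small intestine and 3 in large intestine, beside 6.93% and 3.05% of all tested probes with a symbol. Besides Acot12, the former were Acsl1, Abcd3, Acad11, Acot9, Acaa1b, Acat1, Acadm and Acaa1a, with differences from 1.05 (Acaa1a) to 1.73 (Abcd3). Acaa1a, a peroxisomal thiolase, had similar values on both large intestine arrays (2.76, 3.11, 1.92 and 1.85), but Acadm and Acat1, mitochondrial enzymes of beta-oxidation and ketone bodies, had 0.78 and 0.87 on large intestine replicate 1 against -1.03 and -0.65 on replicate 2. In the other direction 3 genes were called. Acsm3, a medium chain acyl-CoA synthetase, had 3.15, 2.44, 5.74 and 5.05 (difference -2.60, SE 0.36, adjusted p = 5.71e-05), Acads, the short chain acyl-CoA dehydrogenase, had 1.05, 1.41, 2.55 and 3.29 (difference -1.69), and Acot7, a thioesterase, had a difference of -1.21. The list's median difference was 0.09. With slide as a fixed block 5 genes were called towards small and 3 towards large intestine, and 6 of the 12 calls above were among them. Without large intestine replicate 2 the calls towards small intestine came to 4, those towards large intestine to 3, and 5 of the 12 calls above were among them.

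Of 21 tested genes for bile acid and xenobiotic handling (of 54 listed), 4 were called and all were higher in small intestine, beside 6.93% over all tested probes with a symbol. Nr1i3 encodes the constitutive androstane receptor, a nuclear receptor that switches on drug metabolism. It had 3.77, 3.97, 0.45 and 0.85, a difference of 3.22 (SE 0.15, adjusted p = 3.15e-11), with all 4 arrays apart by at least 2.91. Fmo4 and Fmo1 are flavin monooxygenases. The first had 3.20, 3.07, 1.03 and 0.17 and was well above background on 1 of 2 large intestine arrays, and the second had a difference of 1.29 (adjusted p = 0.00791). Abcb1a, a drug efflux pump, had 4.24, 4.47, 4.14 and 2.33. Its call (adjusted p = 0.0411) was carried by replicate 2, since without it the difference was 0.22 (adjusted p = 0.866). The median difference of the list was 0.19, and -0.03 against large intestine replicate 1 alone. With slide as a fixed block 3 genes were called, 2 of them among the 4 above. Without replicate 2 the calls were 2, Nr1i3 and Fmo4, and without replicate 1 they were 7.

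Among the other genes with the widest gaps towards small intestine, several had no place in the lists. Prxl2a, a peroxiredoxin-like protein, had 4.34, 4.56, 0.47 and -0.87 (25.1-fold). Hnf4aos, a non-coding RNA antisense to the gene of the enterocyte factor HNF4A and listed by the study as 0610008F07Rik, had 4.69, 4.48, 0.59 and 0.26 (17.9-fold). Npl, which cleaves sialic acid, had 2.27, 2.62, -0.93 and -0.94. For all 3 the large intestine values were low on both arrays. Mfsd4b2, a member of a sugar transporter family, had 3.88, 3.74, 1.16 and -0.05, and Ttc39c had 2.07, 2.05, -0.26 and -1.02. The uncharacterised transcripts 1700016C15Rik and 4930515G13Rik differed by 3.61 and 3.35. Mfsd4b2 and 1700016C15Rik were not well above background on large intestine replicate 2. All 7 genes were taken for their wide gaps, which fixes that both large intestine arrays lie far from those of small intestine.

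The nuclear and mitochondrial genes of the respiratory chain, taken by symbol pattern, showed a shallow lean. Of 79 tested genes 9 were called and all were higher in small intestine, and 33 were apart in that direction against 8 in the other, with a median difference of 0.24. Over all tested probes with a symbol 6.93% were called towards small intestine, and 22.0% and 20.0% were apart in the 2 directions. Those called were Atp5pb, Ndufb3, Ndufs1, Cox7b, Sdhd, Sdha, Ndufa5, Uqcrc2 and Atp5md, with differences from 1.07 (Atp5md) to 1.76 (Atp5pb). Atp5pb, a subunit of ATP synthase, had 1.05, 0.57, 0.45 and -2.34, and Ndufs1, of complex I, had 0.82, 0.51, 0.41 and -1.80. In these 2 genes large intestine replicate 1 was near the small intestine arrays and replicate 2 was far below, while in Sdhd (2.30, 1.87, 1.23 and 0.54) the 4 arrays were more evenly spaced. The median difference of the list was 0.21 against replicate 1 and 0.25 against replicate 2, and the within-slide median was 0.14. With slide as a fixed block no gene of the list was called. Without replicate 2 no gene of the list was called, and without replicate 1 the calls were 21 towards small intestine and 4 towards large intestine.

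**Figure D3:**
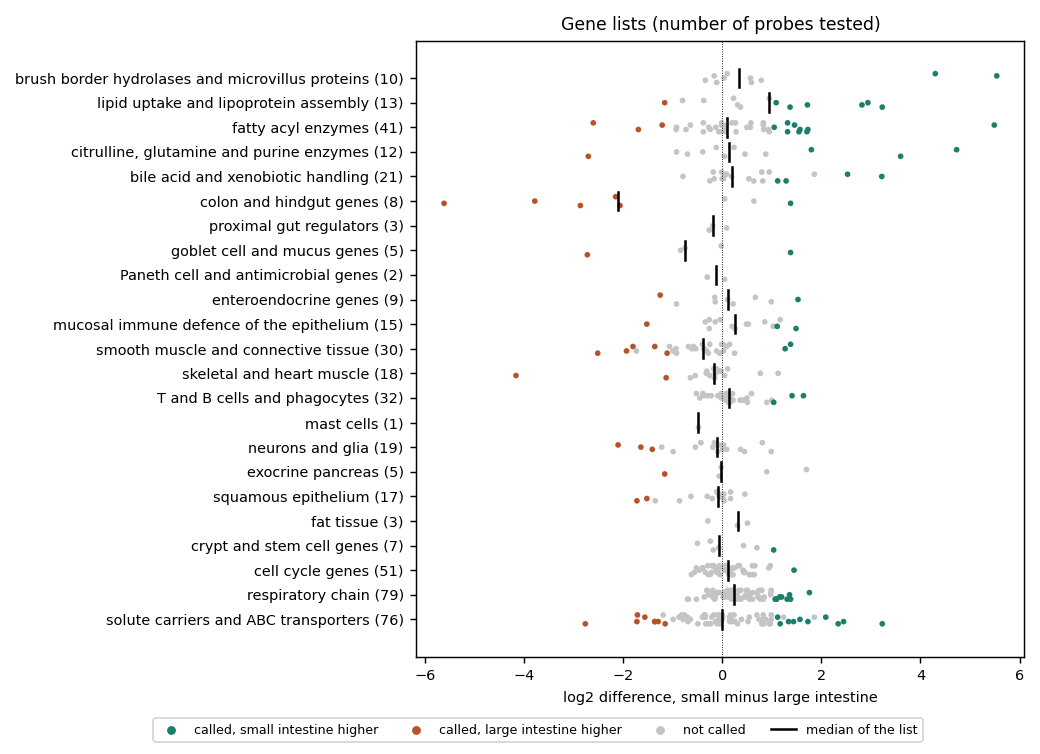
Log2 difference, small minus large intestine, of every tested probe in 23 gene lists (x axis), green when called higher in small intestine, brown when called higher in large intestine and grey when not called, with a black bar at the median of each list. The colon and hindgut list lies to the left (median -2.10) and the lipid uptake list to the right (median 0.95), and most other medians lie close to 0.

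Some genes of the colon and hindgut list were among those with the largest differences towards large intestine. The list was chosen with earlier results of these data known, so its counts are not an independent result. Of 8 tested genes of the colon and hindgut list (of 49 listed), 5 were called higher in large intestine and 1 in small intestine (3.05% and 6.93% over all tested probes with a symbol), with a median difference of -2.10 that was -1.86 against replicate 1 and -2.26 against replicate 2. Without large intestine replicate 2 the calls were 4 and 0. Plet1, a surface protein of epithelial progenitors first found in placenta and listed by the study as 1600029D21Rik, had 0.65, 0.08, 6.10 and 5.83, the widest gap of all named members. The difference was -5.61 (SE 0.84, adjusted p = 0.000138), or 48.7-fold, and within the shared slide it was -6.03. Hoxaas3, a non-coding RNA from the antisense strand of the Hoxa cluster listed as 2700086A05Rik, had 0.50, 0.49, 3.50 and 5.05 (difference -3.78, SE 0.30, adjusted p = 5.66e-08). Both genes were named for their gap, which fixes that the large intestine arrays lie far from those of small intestine. Nxpe2 and Cbr2, a carbonyl reductase, were called with differences of -2.06 and -2.86. Nxpe2 had 0.27, 0.12, 1.96 and 2.55, and lost its call without large intestine replicate 2. Mptx1, mucosal pentraxin, had 5.74, 3.36, 6.68 and 6.72, so that the small intestine replicates lay further from each other than replicate 1 lay from large intestine. Gal3st2, a sulfotransferase acting on mucin sugars, was the member of the list called higher in small intestine (3.36, 3.43, 2.49 and 1.55), and Lypd8, an antibacterial surface protein, overlapped with 5.97, 6.77, 6.66 and 5.98.

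Other members with wide gaps towards large intestine were of varied function. Foxd2os, a non-coding RNA listed as 9130206I24Rik, had -1.83, -1.55, 1.70 and 2.12 (difference -3.60, SE 0.24, adjusted p = 5.34e-09). C2cd4b, a nuclear protein with a C2 domain, had 1.03, 0.44, 3.35 and 5.04, and Tfcp2l1, a transcription factor known from kidney ducts and pluripotent cells, had -0.49, -0.59, 2.61 and 1.73. For each of these the large intestine arrays were both far above those of small intestine. Slc45a3, a solute carrier, had -0.97, -1.08, 1.14 and 2.33, and its adjusted p was 0.0563 without large intestine replicate 2. Klk1b7-ps, a kallikrein pseudogene with near-identical relatives whose transcripts the probe may share, differed by -2.54. The transcripts AI854703, 2610528A11Rik and 4732465J04Rik differed by -3.28, -2.94 and -2.70, and the last was not well above background on either small intestine array, where its signal in the Cy3 channel alone was at least 6.85-fold lower (log2 means of 6.58 and 9.36).

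Most calls in the muscle and nerve lists were towards large intestine. Tnni1, the troponin I of slow skeletal muscle fibres, had -0.35, -0.15, 3.19 and 4.62 (difference -4.16, SE 0.78, adjusted p = 0.00116), the second largest among the named members of this direction. Of 18 tested genes of skeletal and heart muscle (of 41 listed) 2 were called, Tnni1 and Speg, with a median difference of -0.15, beside 3.05% called in this direction over all tested probes with a symbol. Tnni1 alone was called without large intestine replicate 2, and also with slide as a fixed block. Apart towards large intestine were 7 of the 18, against 3 in the other direction, beside 20.0% and 22.0% of all tested probes with a symbol. Some defining genes had similar values in both tissues. Actn3, of fast fibres, had -3.24, -2.66, -2.90 and -2.51, Myog, a muscle regulator, had -1.54, -1.48, -1.33 and -1.41, and Mstn, myostatin, and Mybph were not well above background on any of the 4 arrays. The summed Cy3 signal of the list was 25378 and 28652 in small intestine and 26439 and 33555 in large intestine.

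Of 30 tested genes of smooth muscle and connective tissue (of 46 listed), 5 were called higher in large intestine and 2 in small intestine, and 13 were apart towards large intestine against 3 in the other direction, with a median difference of -0.38. Over all tested probes with a symbol 3.05% and 6.93% were called in these directions and 20.0% and 22.0% were apart. Csrp1, a LIM protein of smooth muscle, had 1.06, 2.02, 3.49 and 4.61 (difference -2.51, SE 0.46, adjusted p = 0.000914), and Tns1, the focal adhesion protein tensin, had 1.34, 2.11, 3.37 and 3.68 (difference -1.80). Olfml2b, Prelp and Actn1 were also called, with differences of -1.93, -1.36 and -1.11. Prrx1, a mesenchymal transcription factor, and Angptl1 were called in the other direction (1.38 and 1.27). Prrx1 was not well above background on either large intestine array, and its Cy3 signal was at least 2.34-fold higher in small intestine. Angptl1 was not well above background on large intestine replicate 2. Without large intestine replicate 2 the list had 5 calls towards large intestine and 1 towards small intestine, and 5 of these 6 were among the 7 above. Some defining genes were high in every sample and overlapped. Des, desmin of muscle cells, had 2.05, 2.73, 2.82 and 2.69, and Rgs5, of vascular muscle and pericytes, had 6.60, 7.46, 7.11 and 6.45. The summed Cy3 signal of the list was 84483 and 160657 in small intestine and 257562 and 276296 in large intestine. In such bulk samples fewer cells of a type and less RNA per cell cannot be told apart, and the part of the muscle coat in the results above was not tested.

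In the list of neurons and glia 3 of 19 tested genes (of 36 listed) were called, all higher in large intestine, beside 3.05% over all tested probes with a symbol. Nos1, the neuronal nitric oxide synthase of inhibitory motor neurons, listed by the study as 2310005C01Rik, had -1.22, -0.90, 0.84 and 1.25 (difference -2.10, SE 0.36, adjusted p = 0.000471). Kif1a, a motor of axonal transport, had -0.29, 0.18, 1.29 and 1.88, and Gpr37l1, a glial receptor, had 2.90, 3.36, 4.19 and 4.91. All 3 were higher on both large intestine arrays than on either of small intestine. Towards large intestine 2 genes of the list were called without large intestine replicate 2, 5 without replicate 1 (with 1 towards small intestine) and 1 with slide as a fixed block. The list's median difference was -0.10, and its summed Cy3 signal was 9037 and 10287 in small intestine and 19147 and 20765 in large intestine.

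The secretory and immune lists are read beside 6.93% called towards small and 3.05% towards large intestine over all tested probes with a symbol. Of 5 tested goblet cell genes (of 34 listed) B3gnt7, an enzyme of sulfated glycan chains, was called higher in large intestine (-0.37, -0.86, 0.73 and 3.47) and Gal3st2 in small intestine, while Zg16, a granule protein of goblet cells, overlapped (3.85, 4.79, 4.70 and 3.98). Of 9 tested enteroendocrine genes Sctr, the secretin receptor, was called higher in small intestine (1.53) and Ptprn, of secretory granules, in large intestine (-1.25), and neither was called without large intestine replicate 2. In the list of epithelial immune defence, Ccl20, which attracts dendritic cells and lymphocytes, and Il18r1 were called higher in small intestine and Sprr1a in large intestine, out of 15. None of these 3 was called without large intestine replicate 2. Ccl20 was called although its arrays overlapped (3.76, 2.13, 2.21 and 0.70). Of 32 tested genes of T and B cells and phagocytes 3 were called higher in small intestine, namely Rgs13, Stk17b and Xcl1, with a median difference of 0.15, and none was called without large intestine replicate 2. Of the 32, 11 were apart towards small and 3 towards large intestine, beside 22.0% and 20.0% over all tested probes with a symbol. Summed Cy3 signals of that list were 18083 and 16679 in small intestine and 18677 and 14314 in large intestine. Sctr, Il18r1 and Xcl1 were not well above background on large intestine replicate 2, so their differences are not exact. The Paneth cell list (2 tested), the proximal gut regulators (3), mast cells (1) and fat tissue (3) had no call.

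Lists for neighbouring organs had few calls. Of 5 tested exocrine pancreas genes Aqp12 was called higher in large intestine (-1.16), but not without large intestine replicate 2 or with slide as a fixed block. Try5, a trypsinogen, had 3.53 on small intestine replicate 1 and between -0.19 and 0.27 on the other arrays, and Amy2a5, pancreatic amylase, was not well above background on any of them. Of 17 tested genes of squamous epithelium Sprr1a and Abca12 were called higher in large intestine, and Abca12 was not well above background in small intestine. Of these 17, 7 were apart towards large intestine and 0 towards small intestine, beside 20.0% and 22.0% of all tested probes with a symbol, and the median difference was -0.09. Of 7 tested crypt and stem cell genes Apc was called (1.04), with overlapping arrays, and of 51 cell cycle genes Gmnn was called (1.45), with a median difference of 0.12. Both calls rested on large intestine replicate 2, and without it the differences were 0.18 and 0.30. Without replicate 1 the cell cycle calls were 8 towards small and 1 towards large intestine.

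Transport proteins moved in both directions. Of 76 tested probes for solute carriers and ABC transporters 10 were called higher in small intestine and 8 in large intestine, beside 6.93% and 3.05% over all tested probes with a symbol, with a median difference of 0.00. Without large intestine replicate 2 the calls were 5 in each direction, and without replicate 1 they were 20 and 11. Towards small intestine, beside Abca1, Slc35e2 (2.45), Slc30a5, a zinc transporter of the secretory pathway (2.34), and Slc35a5 (2.09) had the largest differences. Slc30a5 had 1.57, 1.08, 0.08 and -2.11. Towards large intestine Slc45a3 and Slc4a3, an anion exchanger (-1.56), were among those called. Abca12 and Slc17a9, a vesicular nucleotide transporter, were not well above background on either small intestine array, and their Cy3 signals were at least 3.17-fold and 4.08-fold higher in large intestine. Abcc1, a pump for glutathione conjugates, had a smaller difference with closely placed arrays (-2.14, -2.0, -0.81 and -1.05).

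Levels in the other 13 tissues did not enter the difference between the intestines, although they shared in the filter and in the estimate of spread. Among the 1281 called members higher in small intestine, the tissue with the highest mean outside the intestine was liver for 318 (24.8%) and kidney for 167 (13%), beside 12.2% and 6.15% over all tested probes with 4 values. For the 1055 called members higher in large intestine liver came to 9.0% and kidney to 7.01%, while bladder was highest for 8.82%, beside 4.52% over all. Of the same members, brain cortex was highest for 12.7% and stomach for 10.9%, beside 11.1% and 6.3%, and stomach was also highest for 9.37% of the members higher in small intestine. Small intestine itself was the highest of 15 tissues for 448 (35.0%) of the members higher there, and large intestine for 203 (19.2%) of those higher in large intestine, beside 6.13% and 5.87% over all tested probes with 4 values. Being highest uses the same intestinal values that chose the members. All of these shares are a description, since probes share arrays and are not independent.

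**Figure D4:**
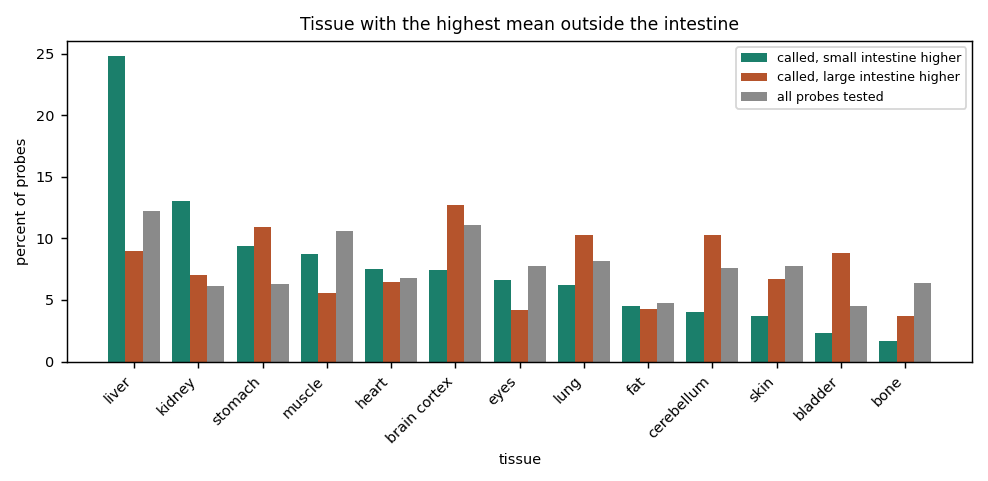
Percent of probes (y axis) whose highest mean among the 13 tissues outside the intestine was the tissue named on the x axis, for 1281 called members higher in small intestine (green), 1055 higher in large intestine (brown) and all tested probes with 4 values (grey). Liver and kidney are the tallest green bars, at 24.8% and 13%, and bladder is 8.82% among brown against 4.52% among grey.

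Single genes followed these patterns in part. Acot12 had a mean of 7.41 in kidney and 7.20 in liver, both above small intestine (5.52), and between -0.08 and 0.21 in the other tissues. Cps1 was higher in liver (8.96), Nr1i3 in liver (4.62) and Hnf4aos in kidney (5.84). Sis and Mptx1, in contrast, had no tissue outside the intestine above either of their intestinal means. Prxl2a was lower in large intestine than in each of the other 13 tissues. Plet1 was also high in eyes (6.25), bladder (5.96), stomach (5.48), lung (5.0), kidney (4.38) and skin (3.38), and Tnni1 in bone (4.87), skeletal muscle (3.20) and eyes (2.83). Of the other called hindgut list genes, Cbr2 was 0.93 in large intestine and higher in lung (4.46), eyes (3.64), bladder (3.56) and stomach (1.24) among others, and Nxpe2 was 2.25 there, 3.19 in liver and 2.41 in bone. Hoxaas3 and Foxd2os had their highest mean of all 15 tissues in large intestine.

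**Figure D5:**
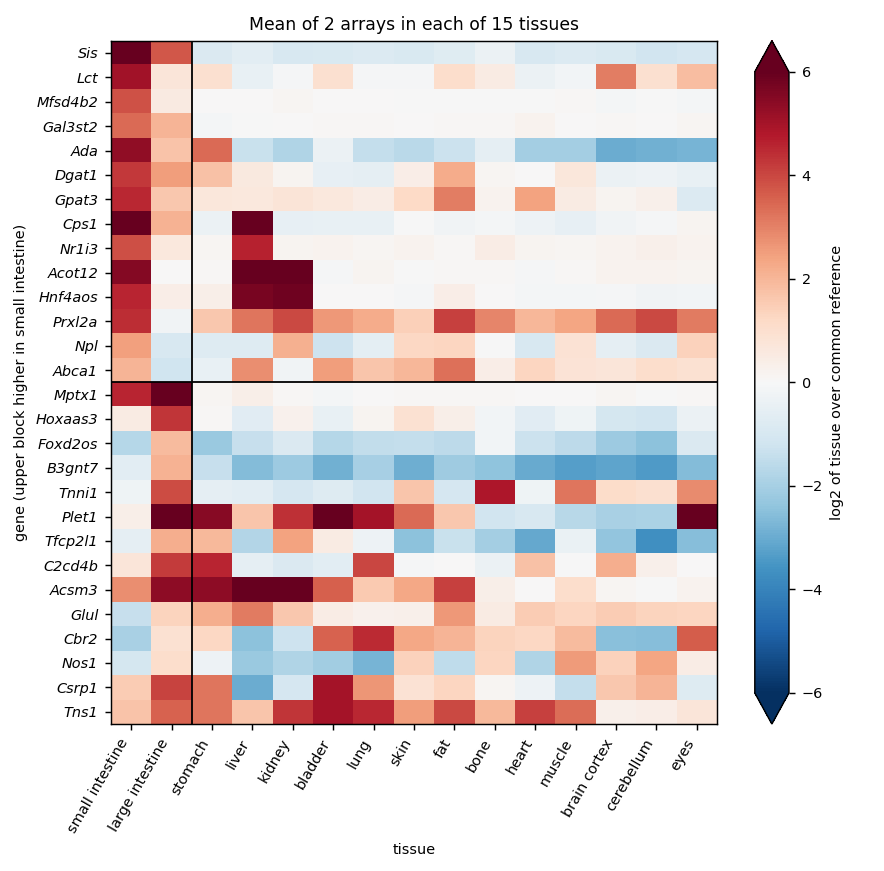
Mean level of 2 arrays (colour, log2 of tissue over common reference, clipped at the ends of the scale) of 28 named genes in 15 tissues, the upper 14 genes higher in small intestine and the lower 14 in large intestine. Cps1, Nr1i3, Acot12 and Hnf4aos are also high in liver or kidney, whereas Sis, Mfsd4b2 and Mptx1 are at most 0.33 in the 13 tissues outside the intestine.

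Members close to the edge of the rule show how little separates them from the rest. Of the called probes with a symbol, Usp34 (-0.44, -0.75, -0.75 and -2.60) and Macir (1.97, 1.54, 1.53 and -0.51) were just inside, with the lower small intestine array and large intestine replicate 1 nearly equal. Ccl20, Elk4 (0.94, 0.54, 0.55 and -1.77) and Apc (0.26, -0.13, -0.11 and -1.84) were just outside. Towards large intestine Hspbp1 (-0.64, -0.27, -0.19 and 1.52) was just inside and Irf2bp1 (-0.08, 0.33, 0.32 and 1.97) just outside. In these genes except Ccl20, large intestine replicate 2 was the array farthest from the other 3. In Pagr1a, also just inside towards large intestine (-0.05, 1.11, 1.22 and 2.19), small intestine replicate 1 was farthest.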

How the data were processed

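RNA of each tissue (Cy3) and of the common reference (Cy5) was hybridised to 30 two-colour arrays, and the authors deposited spot intensity files of Agilent Feature Extraction 9.5.1.1 with a value table of 25030 probes. The values of that table are log10 values that, per the deposited files, followed the Cy3 signal (slope 0.9979) less the deviation of the Cy5 signal (slope -0.9974), and it was used as an alternative. The scanner software's own log10 ratio was another.

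Mean spot intensities, as deposited, were background corrected by normexp (offset 50) and normalised within arrays by loess in limma 3.58.1 under R 4.3.3, and replicate spots were averaged. Each log2 ratio is Cy3 over Cy5, control spots and flagged outlier spots were left out, and 42 flagged spots were on the 4 intestine arrays. Probes were tested if 1 or more tissues had its 2 arrays both clearly over background. The fit used 30 arrays, 15 coefficients and 15 residual degrees of freedom (prior 2.95), so the spread was shared over all tissues. Depth has no count here, and precision is limited by 2 arrays per tissue. No dye was swapped. Bounds written as at least a fold were taken in the Cy3 channel alone after Aquantile normalisation, so they need not match the fold of the ratios.

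The members, gene lists and tests were chosen with earlier results of these data known. Named genes were, in each direction, the 12 with the widest gap between tissues and the 6 with the largest difference among probes with a symbol, 6 genes taken from those earlier results, called list members, and members that show a list is not high. Symbols came from the study's supplementary lists (5971 probes) and were updated through RefSeq, which held 3619 as current symbols and 1866 as synonyms. A gene of the lists is not reported here. Promoters are from RefSeq (GRCm38.p6), and the genome build of the array design is not given in the sources used here. Replicate numbers did not pair the samples: the deviations of same-numbered intestine arrays correlated at 0.19, and 33 of 105 tissue pairs exceeded 0.1. Alternatives were another background correction, normalisation, filter, probe set, value table, block and the removal of each array. The fit was tested on simulated data with known differences.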

Additional observations from a re-analysis of the deposited data

Results flagged for a closer look

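The array held probes outside the table of 25030 that no comparison above used. Of 13623 such probes that passed the same filter, 569 (4.18%) were called towards small intestine and 405 (2.97%) towards large intestine, with differences up to 5.81 and -6.69 on the log2 scale. They have no symbol in the lists used here and are given as counts.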

How the results depend on the processing

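Probes called higher in small intestine (1330) numbered 710 with median centring, 670 with slide as a fixed block, 789 with scan day as a fixed block and 464 when called against each large intestine array alone, and between 547 and 3311 when 1 array was left out. Those called higher in large intestine (1060) numbered 621 with median centring and 383 against each large intestine array alone, and between 567 and 2437 when 1 array was left out. A limma fit to the 4 intestine arrays alone called 0 and 0. It had 2151 probes at an unadjusted p under 0.05 and a smallest adjusted p of 0.0584. This fit has 2 residual degrees of freedom and takes its spread from the intestine arrays alone, where that of large intestine is wide. Without small intestine replicate 1 the calls were 724 and 567. Members numbered 7200 and 7559 over all probes of the array, and 6197 to 9236 and 6291 to 8907 when 1 array was left out, where fewer arrays have to be apart. With replicate number as a block 1368 and 1091 probes were called. The call against each large intestine array alone was chosen after seeing the data. With Cy3 alone the median over all probes was -0.13. Of 97 named probes, 94 kept their call without large intestine replicate 1, 50 without replicate 2, 52 with slide as a fixed block and 0 in the fit to 4 arrays, and 37 kept it under every setting but that fit. With slide as a fixed block the differences of Apc and Ccl20 turned to -0.02 and -0.07. The cause of these changes was not tested.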
